A study of Homo sapiens with 15 samples.

Results

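The RNA of UKE-1 cells that had received neither TNF-α nor a drug is described here, gene by gene, from the 3 untreated libraries among the 15 libraries of the series. UKE-1 is an established human blood cell line, grown from a patient whose essential thrombocythaemia had turned into acute leukaemia, and it is known to carry an activating JAK2 mutation. The libraries were chosen by their label alone, and no value decided which entered. Per the labels they are untreated replicates 1, 2 and 3 of UKE1 cells, with RNA taken at the 3 h time point that all groups share. The other 12 libraries, which had TNF-α alone or TNF-α with MCL, ruxolitinib or both, are not used. The labels enter WT in the field for cell type, and the sources used here do not say what that entry refers to. All libraries come from 1 cell line, and nothing says whether the 3 were separate cultures, so the spread given below may be technical.

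UKE-1 cells are studied as a model of the myeloproliferative neoplasms, in which stem and progenitor cells of the marrow make too many platelets, red cells or granulocytes. In these cells JAK kinases sit on cytokine receptors such as that for erythropoietin, and when a cytokine binds they phosphorylate STAT transcription factors, which then enter the nucleus. TNF-α acts through another route, in which its receptors gather adaptor proteins and kinases that release NF-kB from its IkB inhibitors. Which receptors, relays and inhibitors a cell makes before any stimulus sets which of these parts are there to be engaged.

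The libraries held 16010315, 18035604 and 16830937 counts in replicates 1, 2 and 3, and 23478, 23879 and 23304 genes with at least 1 count. Levels are given as TPM, which is the count of a gene divided by its length and scaled so that every library sums to the same total. Such values can be set side by side between genes. A gene is called expressed here at 1 TPM or more in all 3 libraries. The 212 protein-coding genes with a mean of 0.9 to 1.1 TPM had a median of 19 counts per library, so calls next to that threshold rest on few reads. Of 19951 protein-coding genes, 11024 were expressed, which is 55.3%. A further 4580 had no count in any library. The replicates differed by more than counting noise, with a chi-square per degree of freedom of 1.97 to 2.77 between pairs, so none is a copy of another. Across 11314 genes, which are not independent replicates, the correlation of log2 TPM between pairs was 0.993 for each pair (Pearson r). Among the 8145 protein-coding genes with a mean of at least 10 TPM the median coefficient of variation was 3.79%, and 93.9% of them varied by under 10%.

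The most abundant messages were those of energy production and the cell's frame. Of the 20 protein-coding genes with the highest level, 12 were encoded by mitochondria, led by MT-CO1, a subunit of cytochrome c oxidase, at 27224 ± 319.6 TPM (SD, n = 3, as for every mean here). Mitochondrial genes held 19.95% ± 0.517 of all TPM and 5.22% ± 0.115 of the counts. Among nuclear genes, ACTB, which encodes cytoplasmic β-actin, led at 9117 ± 34.05 TPM. The translation factor EEF1A1 followed at 5935 ± 161 TPM, and its range over the libraries did not overlap that of ACTB. TMSB4X, whose product binds free actin, stood at 5499 ± 156 TPM, and FTL, the light chain of the iron store ferritin, at 4640 ± 171 TPM.

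To describe the cells, 710 genes were placed in 30 lists by lineage, receptor family and pathway role. Of these members 419 were expressed, which is 59.0% beside 55.3% of all protein-coding genes, so the lists as a whole lay near that background. A further 101 had no count and 190 had counts but less than 1 TPM in at least 1 library. A count of 0 allows a mean of up to what 3 counts over the 3 libraries would give, and this upper limit is printed beside the genes named for their lack. It covers counting error only. In a bulk culture, few cells with much of a transcript and many cells with little of it cannot be told apart.

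The marker lists differed widely in level. The 32 megakaryocyte and platelet genes had a median of 28.4 TPM with 26 expressed, and the 20 stem and progenitor genes a median of 24.4 TPM with 12 expressed. Every other lineage list had a median near or below 1 TPM, as the plot of lineage marker genes shows. The medians were 1.04 TPM for T and NK cell genes with 12 of 24 expressed, 0.929 TPM for mast cell, basophil and eosinophil genes with 10 of 20, and 0.381 TPM for granulocyte genes with 8 of 26. They were 0.281 TPM for monocyte, macrophage and dendritic genes with 11 of 27 expressed, 0.243 TPM for erythroid genes with 11 of 33, and 0.236 TPM for B cell genes with 5 of 17. Over all protein-coding genes the median was 3.37 TPM, and 55.3% were expressed.

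**Figure D1:**
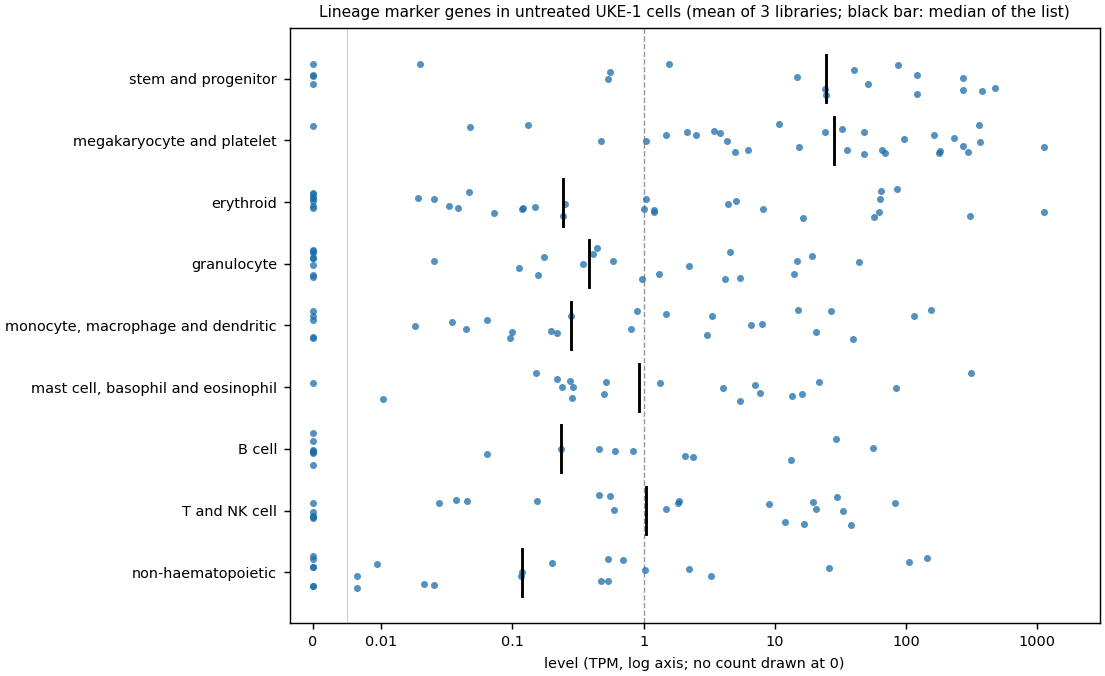
Mean level over the 3 untreated libraries (TPM, log axis) of each gene in 9 marker lists, 1 point per gene, with a black bar at the median of the list, a dashed line at 1 TPM and genes without a count drawn at 0. The medians of the megakaryocyte list (28.4 TPM) and the stem list (24.4 TPM) lie far to the right of the erythroid median (0.243 TPM). Among erythroid genes RHAG alone (1127 TPM) lies near the highest megakaryocyte gene, MMRN1 (1138 TPM).

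The blood identity of the line was visible in a general marker of leukocytes. PTPRC, which encodes the leukocyte common antigen CD45, had 116, 126 and 122 TPM in replicates 1, 2 and 3. All 3 libraries were close to each other. Epithelial genes gave a mixed picture. EPCAM and CDH1, the adhesion molecules of epithelia, had no count (upper limits 0.0803 TPM and 0.0327 TPM), whereas the keratin gene KRT18 stood at 105 ± 4.59 TPM and KRT8 at 25.8 ± 1.52 TPM, or 49.6 TPM when scaled by its longest transcript. The endothelial cadherin gene CDH5 was the highest of the 24 non-haematopoietic markers at 145 ± 3.14 TPM. The other endothelial genes of that list were lower, with TEK, the angiopoietin receptor, at 3.24 ± 0.207 TPM and CLDN5, a tight junction protein, at 0.2002 ± 0.102 TPM. Of the 24 genes, 5 were expressed, which is 20.8% beside 55.3% of all protein-coding genes, and 6 had no count.

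Stem and progenitor genes divided into the 12 expressed ones, with means of 14.9 TPM or more, and 8 others with means of 1.55 TPM or less. CD34, the surface marker of haematopoietic progenitors, had 474, 482 and 478 TPM in replicates 1, 2 and 3. It was the highest member of its list on the deposited lengths and higher than 99.0% of protein-coding genes in these cells. With the longest transcript as length CD34 was at 364 TPM, below CD44 at 454 TPM and ANGPT1 at 386.5 TPM. CD44, a hyaluronan receptor, stood at 382 ± 6.06 TPM, the integrin gene ITGA6 at 275 ± 2.53 TPM and EGFL7, a secreted protein of endothelium and leukaemic progenitors, at 274 ± 4.69 TPM. KIT, the stem cell factor receptor, was far lower at 24.1 ± 0.882 TPM. CD38, a surface enzyme that rises as progenitors mature, had 2 counts in all, and FLT3, the receptor of the FLT3 ligand, had 0.536 ± 0.138 TPM. THY1, the CD90 antigen of stem cells, and SPINK2, a progenitor gene, had no count (upper limits 0.0341 and 0.262 TPM). The RNA was thus high for CD34 and near 0 for CD38, FLT3 and THY1 in the same libraries.

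Of the lineage marker lists, that of megakaryocyte and platelet genes had the largest expressed share, 81.2% beside 55.3% of all protein-coding genes. The lists and their members were chosen with earlier results of these data known. Their ranking is therefore no independent measure of lineage. MMRN1 encodes multimerin, a factor V binding protein kept in platelet granules, and had 1157, 1095 and 1161 TPM in replicates 1, 2 and 3. It had the highest mean of any lineage marker on the deposited lengths, and its range overlapped that of the erythroid gene RHAG. With the longest transcript as length RHAG (1025 TPM) came before MMRN1 (818 TPM). ITGA2B, the αIIb chain of the platelet fibrinogen receptor, had 368, 365 and 373 TPM. Its partner chain ITGB3 had only 4.03, 4.08 and 3.43 TPM, and 48.4% of the exonic bases of ITGB3 are free of other genes, so its level may be understated. Scaled by those bases alone it was 7.55 TPM, still far under ITGA2B. The prostaglandin synthase gene PTGS1 stood at 364 ± 8.41 TPM and the chemokine gene PPBP, stored in platelet granules, at 300.2 ± 14.3 TPM. Among the chains of the von Willebrand factor receptor, GP9 had 274 ± 7.41 TPM and GP1BA 179 ± 7.98 TPM. GP5, which belongs to the same receptor, was low at 4.93 ± 0.388 TPM, and GP1BB had no count, but none of its exonic bases are free of other genes, so that 0 says nothing about its RNA.

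Other platelet genes were lower. SELP, the adhesion molecule P-selectin of platelet granules, had 164 ± 4.403 TPM, PF4, platelet factor 4, 69.8 ± 7.15 TPM, and VWF, von Willebrand factor, 15.3 ± 0.762 TPM. TUBB1, the tubulin of the platelet's marginal band, had 3.42 ± 0.393 TPM, and P2RY12, the ADP receptor targeted by antiplatelet drugs, had 2.41, 1.23 and 0.768 TPM in replicates 1, 2 and 3, which straddles the threshold. Within the list 25 neighbouring pairs could be ordered, and 7 of them overlapped in their ranges over the libraries, among them ITGA2B with PTGS1.

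The erythroid list held 2 genes at 100 TPM or more in all libraries. Of its 33 members 22 were below the threshold, 7 of them without a count. RHAG encodes the Rh-associated glycoprotein, an ammonium channel of the red cell membrane, and had 1142, 1132 and 1108 TPM in replicates 1, 2 and 3. The transferrin receptor gene TFRC, used by all dividing cells for iron uptake, had 309 ± 5.94 TPM, and HBQ1, the theta globin gene, 85.9 ± 3.56 TPM. BLVRB, a biliverdin reductase, stood at 64.9 ± 2.08 TPM, SLC25A37, the mitochondrial iron importer, at 63.5 ± 1.63 TPM and CA2, carbonic anhydrase 2, at 62.2 ± 2.69 TPM. GYPC, which encodes the membrane protein glycophorin C, had 57.5 ± 1.58 TPM. Several other red cell genes of the list were at or near 0. HBB, the adult β-globin gene, had no count (upper limit 0.155 TPM). HBA1 and HBA2, near-identical α-globin genes whose reads can be shared or lost, had 3 and 3 counts over the 3 libraries. ALAS2, the first enzyme of red cell haem synthesis, had 4 counts in all, and SLC4A1, the band 3 anion exchanger, had 1.66, 1.34 and 0.596 TPM. EPOR, the erythropoietin receptor, had 4.99, 4.58 and 3.58 TPM. All 3 values lay above the threshold and all were low beside RHAG.

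In the marker lists of other blood lineages the share of expressed genes lay below the 55.3% of all protein-coding genes, from 5 of 17 B cell genes to 10 of 20 mast cell, basophil and eosinophil genes and 12 of 24 T and NK cell genes. CSF1R, the receptor of macrophage colony-stimulating factor, had 154, 159 and 156 TPM in replicates 1, 2 and 3, and CLEC9A, a lectin of cross-presenting dendritic cells, 116, 118 and 114 TPM. CD14, the monocyte co-receptor for lipopolysaccharide, had 0.679, 1.21 and 0.757 TPM, and FCN1, a ficolin of monocytes, had no count (upper limit 0.0406 TPM). FCER1G, the signalling chain shared by Fc receptors and platelet GPVI, led the mast cell list at 316 ± 9.04 TPM. FCER1A, the IgE-binding chain, had 21.7 ± 1.61 TPM, and MS4A2, the β chain of the same receptor, had no count (upper limit 0.0454 TPM). Of the granulocyte genes, CD33, a sialic acid binding lectin of myeloid cells, was highest at 43.7 ± 1.64 TPM, or 119 TPM when scaled by its longest transcript. MPO, myeloperoxidase, had 0.908, 1.298 and 0.694 TPM, and ELANE, neutrophil elastase, had no count (upper limit 0.197 TPM).

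Members of the lymphoid lists also ranged widely in level. CD79A, a chain of the B cell receptor complex, had 55.7 ± 2.64 TPM, but MS4A1, the CD20 antigen, had no count (upper limit 0.0415 TPM). NKG7, a granule protein of cytotoxic cells, had 82.7 ± 5.201 TPM, and CD3D, a chain of the T cell receptor complex, 37.9 ± 3.18 TPM. CD247, the ζ chain that this complex needs to signal, and GZMA, granzyme A, had no count (upper limits 0.0501 and 0.226 TPM). Whether these genes came from all cells or a few was not tested.

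Of 50 lineage transcription factors, 35 were expressed, which is 70% beside 55.3% of all protein-coding genes. No count was found for 3, and the median was 19.8 TPM. GATA2, the GATA factor of stem and progenitor cells, had 373, 371 and 373 TPM in replicates 1, 2 and 3. GATA1, the GATA factor of red cell and platelet formation, had 40.8, 40.2 and 40.1 TPM. The mean log2 ratio of GATA2 over GATA1 was 3.21 ± 0.01, a 9.22-fold difference, and the libraries did not overlap. Of the related helix-loop-helix factors of blood stem cells, LYL1 had 329 ± 2.25 TPM and TAL1 229 ± 1.301 TPM. Of the partners that bridge them to GATA factors, LDB1 had 239 ± 9.96 TPM and LMO2 40.04 ± 2.31 TPM. All of these genes were expressed.

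Factors of the platelet branch also differed in level. GFI1B, a repressor needed for red cells and platelets, had 173 ± 3.56 TPM, or 293 TPM when scaled by its longest transcript. FLI1, an ETS factor that drives megakaryocyte genes, had 110.4 ± 3.37 TPM, NFE2, which controls the release of platelets, 92.01 ± 5.804 TPM, and RUNX1, a core-binding factor, 45.5 ± 0.936 TPM. MECOM, the stem cell factor EVI1, had no count (upper limit 0.0222 TPM). KLF1, the master factor of late red cell genes, had 1.32, 0.118 and 0.506 TPM in replicates 1, 2 and 3. Replicate 1 was above 1 TPM and replicate 2 was near 0, on 15 counts in all.

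Of the myeloid factors, SPI1, the ETS factor PU.1, had 219 ± 5.305 TPM and CEBPA, which drives granulocyte and monocyte formation, 36.2 ± 2.44 TPM, or 60.8 TPM over the exonic bases that no other gene shares. IRF8, a factor of monocytes and dendritic cells, had 0.117 ± 0.0381 TPM. GFI1, a repressor needed for neutrophil formation and the paralogue of GFI1B, had 0.314 ± 0.201 TPM. Of the homeobox genes of stem cells, MEIS1 had 59.3 ± 0.929 TPM, HOXB4 22.1 ± 0.961 TPM and HOXA9 20.5 ± 2.15 TPM, while HLF, another stem cell factor, had no count (upper limit 0.0306 TPM). Of the factors of lymphoid cells, IKZF1, which also acts in other blood cells, had 24.3 ± 1.26 TPM, BCL11B of T cells 4.46 ± 0.224 TPM, RUNX3 4 ± 0.703 TPM, PAX5 of B cells 3.04 ± 0.324 TPM and GATA3 of T cells 1.87 ± 0.35 TPM. Of 34 neighbouring pairs among the 35 expressed factors, 15 overlapped in their ranges. The first 8 ranks, from GATA2 through FLI1, did not overlap with their neighbours. With the longest transcript in place of the deposited length LYL1 (469 TPM) came before GATA2 (335.5 TPM).

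**Figure D2:**
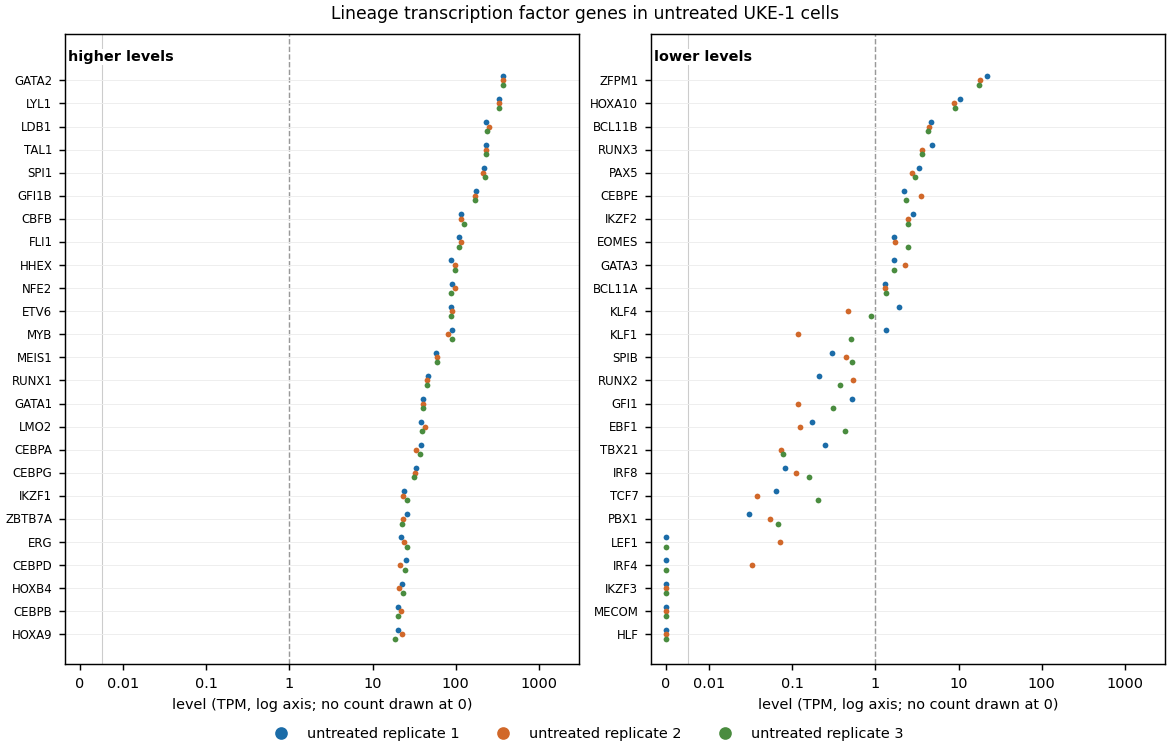
Level of the 50 lineage transcription factor genes in each untreated library (TPM, log axis; 1 coloured point per library), ordered by the mean, with a dashed line at 1 TPM and libraries without a count drawn at 0. The 3 points lie almost on each other for the genes of the left panel, such as GATA2 at 371 to 373 TPM, and spread out below 1 TPM, as for KLF1 at 0.118 to 1.32 TPM.

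The promoters of blood genes were searched for the GATA letters, the hexamers AGATAA and TGATAA on both strands, in windows from 250 bases before to 50 after the gene start (RefSeq, GRCh38.p14). Of 35116 promoters of the table, 16.3% held a match. Of the 33 erythroid genes 17 were matched to a promoter, and 13 of these held the letters. They were found for 4 of the 7 matched erythroid genes that were expressed and for 9 of the 10 that were not. Here and below a gene counts if any of its windows holds a match, whereas shares of the 35116 promoters are of single windows. For megakaryocyte genes the count was 9 of 27, made of 8 of 22 expressed and 1 of 5 that were not. The letters thus stood in promoters of erythroid genes at both ends of the scale. RHAG and PPBP are shown because they were among the highest genes of their lists, and KLF1 because it was near 0 with a match of the same kind. Capitals mark the GATA letters on either strand, 5′ to 3′ on the strand of the gene.
RHAG, chr6:49636790-49637089, minus strand: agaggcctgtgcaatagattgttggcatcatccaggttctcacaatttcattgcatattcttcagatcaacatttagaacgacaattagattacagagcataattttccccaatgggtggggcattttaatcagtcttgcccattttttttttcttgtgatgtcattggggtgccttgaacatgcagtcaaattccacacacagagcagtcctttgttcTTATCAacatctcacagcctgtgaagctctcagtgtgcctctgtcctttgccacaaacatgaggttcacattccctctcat
PPBP, chr4:73988141-73988440, minus strand: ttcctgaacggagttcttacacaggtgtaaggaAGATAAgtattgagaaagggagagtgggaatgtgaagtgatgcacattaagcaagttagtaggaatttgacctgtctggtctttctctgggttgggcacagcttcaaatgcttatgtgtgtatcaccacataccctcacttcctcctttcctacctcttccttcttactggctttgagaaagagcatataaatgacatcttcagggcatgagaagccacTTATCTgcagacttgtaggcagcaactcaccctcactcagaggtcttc
KLF1, chr19:12887152-12887451, minus strand: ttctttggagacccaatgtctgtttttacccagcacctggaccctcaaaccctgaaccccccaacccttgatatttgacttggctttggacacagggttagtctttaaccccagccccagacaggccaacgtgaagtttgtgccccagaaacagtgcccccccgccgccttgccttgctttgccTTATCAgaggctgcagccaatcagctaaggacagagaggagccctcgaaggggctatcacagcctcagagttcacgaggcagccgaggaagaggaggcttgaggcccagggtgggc
A match is a description of the letters and does not show that a factor binds there.

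Cytokine receptor genes were expressed for 18 of 41 members, which is 43.9% beside 55.3% of all protein-coding genes. The median over all 41 was 0.978 TPM. CSF2RB, the β chain shared by the receptors for IL-3, IL-5 and GM-CSF, was the highest and had 70.9, 69.8 and 74.98 TPM in replicates 1, 2 and 3. Its range overlapped that of the next gene, IL10RA. EPOR, the erythropoietin receptor described above, signals through JAK2 and was far below both. The partner chains of CSF2RB differed, with IL3RA of the IL-3 receptor at 33.03 ± 3.095 TPM, CSF2RA of the GM-CSF receptor at 2.95 ± 0.267 TPM and IL5RA of the IL-5 receptor at 1 count in all. CSF3R, the receptor of G-CSF, had 4.59 ± 0.415 TPM, or 7.63 TPM with its longest transcript.

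Some receptors of the IL-6 and IL-10 families were incomplete at the level of RNA, while both chains of the IL-6 receptor were expressed. IL6R, the IL-6 binding chain, had 46.6 ± 2.06 TPM, and IL6ST, the signalling chain gp130, 9.39 ± 0.626 TPM. LIFR, the partner chain for LIF, had no count (upper limit 0.017 TPM), and OSMR, the partner chain for oncostatin M, had 0.181 ± 0.0812 TPM. IL10RA, the binding chain for IL-10, had 71.8 ± 1.396 TPM, whereas IL10RB, the second chain, had 13 counts in all and 0.0938, 0.335 and 0.135 TPM in replicates 1, 2 and 3. IL27RA, a receptor chain for IL-27, had 54.7 ± 0.981 TPM. Of the interferon receptors, IFNGR1 had 31.2 ± 0.358 TPM, IFNGR2 7.84 ± 0.399 TPM and IFNAR1 27.5 ± 1.37 TPM. IFNAR2, the other chain for type I interferon, had 1.52 ± 0.115 TPM, but only 16.8% of its exonic bases are free of other genes, and over those it was 8.64 TPM. IFNLR1, the receptor of type III interferon, had no count (upper limit 0.0411 TPM). In the order of levels 8 of 17 neighbouring pairs overlapped, and with the longest transcript as length IL10RA (107 TPM) came before CSF2RB (50.3 TPM).

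**Figure D3:**
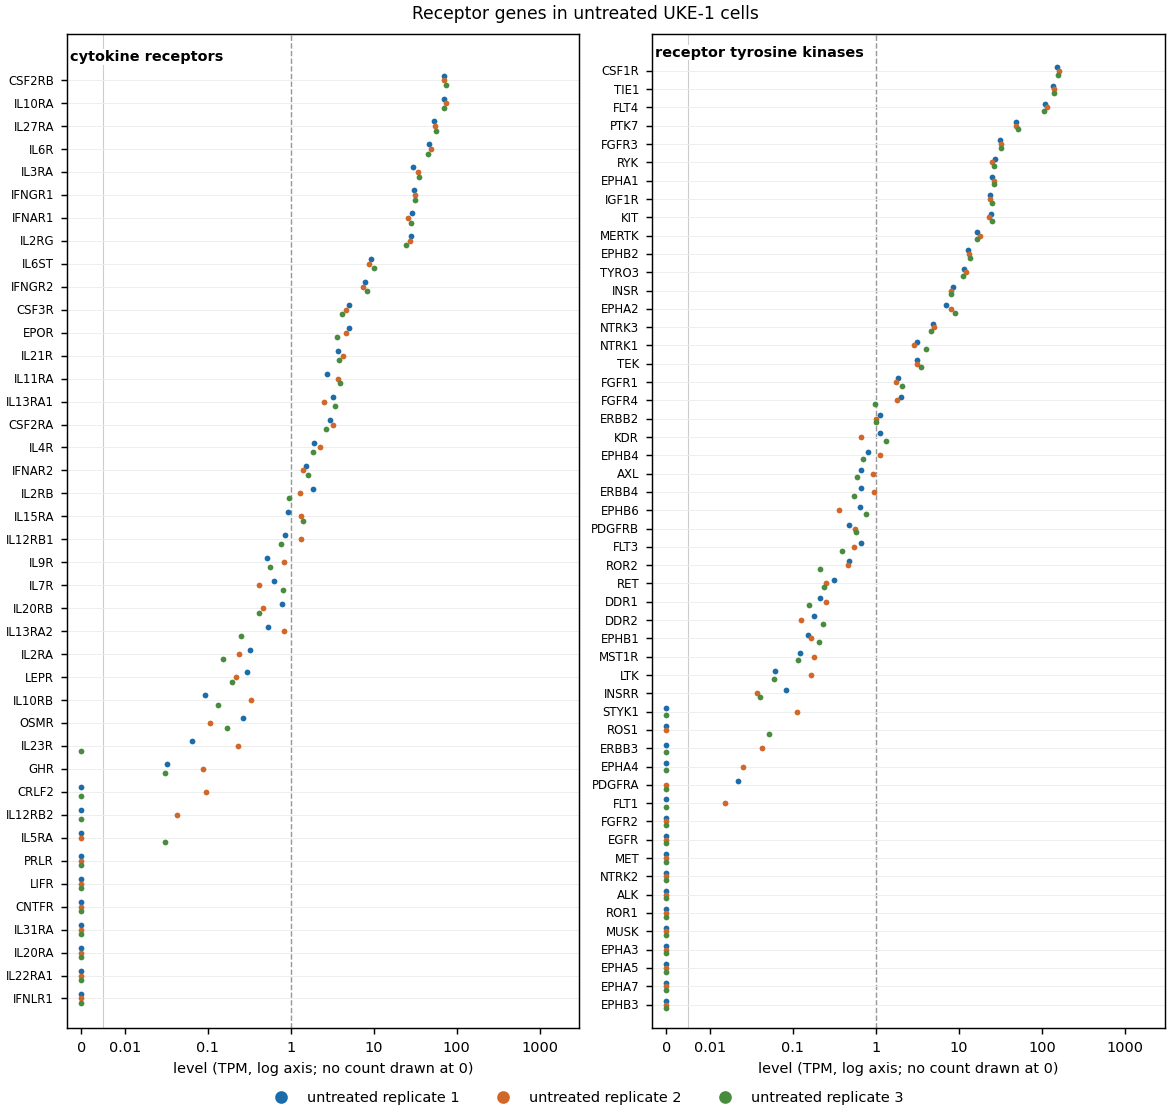
Level of 41 cytokine receptor genes and 52 receptor tyrosine kinase genes in each untreated library (TPM, log axis; 1 coloured point per library), ordered by the mean within each panel, with a dashed line at 1 TPM and libraries without a count drawn at 0. CSF2RB (71.9 TPM) and CSF1R (156 TPM) head the panels, and the widest spreads between the 3 libraries are among genes near or below 1 TPM.

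Among 52 receptor tyrosine kinases, 18 were expressed, which is 34.6% beside 55.3% of all protein-coding genes, and 11 had no count. CSF1R was followed by TIE1, an endothelial receptor of the angiopoietin system, at 139 ± 3.07 TPM, and FLT4, the receptor of the lymphatic growth factors VEGF-C and VEGF-D, at 110.3 ± 5.04 TPM. The VEGF receptors beside FLT4 were low, with KDR at 1.105, 0.668 and 1.305 TPM in replicates 1, 2 and 3 and FLT1 at 1 count in all. FGFR3, a fibroblast growth factor receptor, had 31.6 ± 0.452 TPM, and IGF1R, the receptor of insulin-like growth factors, 24.1 ± 0.843 TPM. EGFR, MET and ALK had no count (upper limits 0.0161, 0.0287 and 0.0275 TPM). Scaled by the longest transcript, TIE1 (163 TPM) came before CSF1R (137 TPM).

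Few chemokine receptor genes were expressed, 5 of 24, which is 20.8% beside 55.3% of all protein-coding genes. CX3CR1, the fractalkine receptor, led with 19.8, 22.01 and 20.4 TPM in replicates 1, 2 and 3. CXCR4, which holds stem cells in the marrow, had no count, which allows up to 0.0909 TPM, and its ligand gene CXCL12 had none either (upper limit 0.0333 TPM). For innate receptors, 11 of 27 members were expressed, which is 40.7%. MYD88, the adaptor that Toll-like and IL-1 receptors share, had 79.7 ± 2.86 TPM, and IL1RAP, the common chain of IL-1 family receptors, 20.1 ± 0.636 TPM. IL1R1, the IL-1 binding chain, had no count (upper limit 0.0285 TPM). TLR4 had 0.804, 0.718 and 0.722 TPM and TLR2 had 1 count in all, while TLR6, which forms a receptor with TLR2, had 5.796 ± 0.321 TPM.

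All 4 JAK kinase genes were expressed, beside 55.3% of all protein-coding genes. JAK1 had 147, 156 and 148 TPM in replicates 1, 2 and 3. JAK3, which serves receptors with the common γ chain, had 76.8, 77.4 and 78.9 TPM, and TYK2, a kinase of interferon and IL-12 family receptors, 72.04, 70.4 and 75.2 TPM. JAK2, the kinase of the erythropoietin receptor, had 17.7, 18.97 and 18.9 TPM. The ranges of neighbours in this order did not overlap, and JAK2 was the lowest by far. The mean log2 ratio of JAK1 over JAK2 was 3.02 ± 0.05, an 8.11-fold difference. JAK3 and TYK2 differed by a log2 ratio of 0.10 ± 0.04, which turned round to -0.21 with the longest transcript as length. The order of that pair thus depends on the length used. IL2RG, the common γ chain with which JAK3 works, had 26.5 ± 1.68 TPM, or 51.2 TPM over its unshared exonic bases.

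Of 6 STAT genes, 5 were expressed, beside 55.3% of all protein-coding genes. STAT5A had 178, 200 and 182 TPM in replicates 1, 2 and 3, and its near copy STAT5B 63.3, 69.3 and 65.2 TPM. Both act downstream of JAK2, and the mean log2 ratio of STAT5A over STAT5B was 1.502 ± 0.024, a 2.83-fold difference. The coding parts of the 2 genes are much alike, so reads that fit both may have been lost or shared. STAT3, the factor of the IL-6 family, had 109.5, 114 and 108 TPM and came between them in level. The ranges of neighbours among the 5 expressed genes did not overlap. STAT6 of the IL-4 pathway had 77.8 ± 3.18 TPM, and STAT2, a factor of type I interferon signalling, 29.96 ± 1.02 TPM. STAT4, which IL-12 activates in lymphocytes, had 6 counts in all and 0.0856 ± 0.0441 TPM. It was the one gene of the 6 below the threshold.

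**Figure D4:**
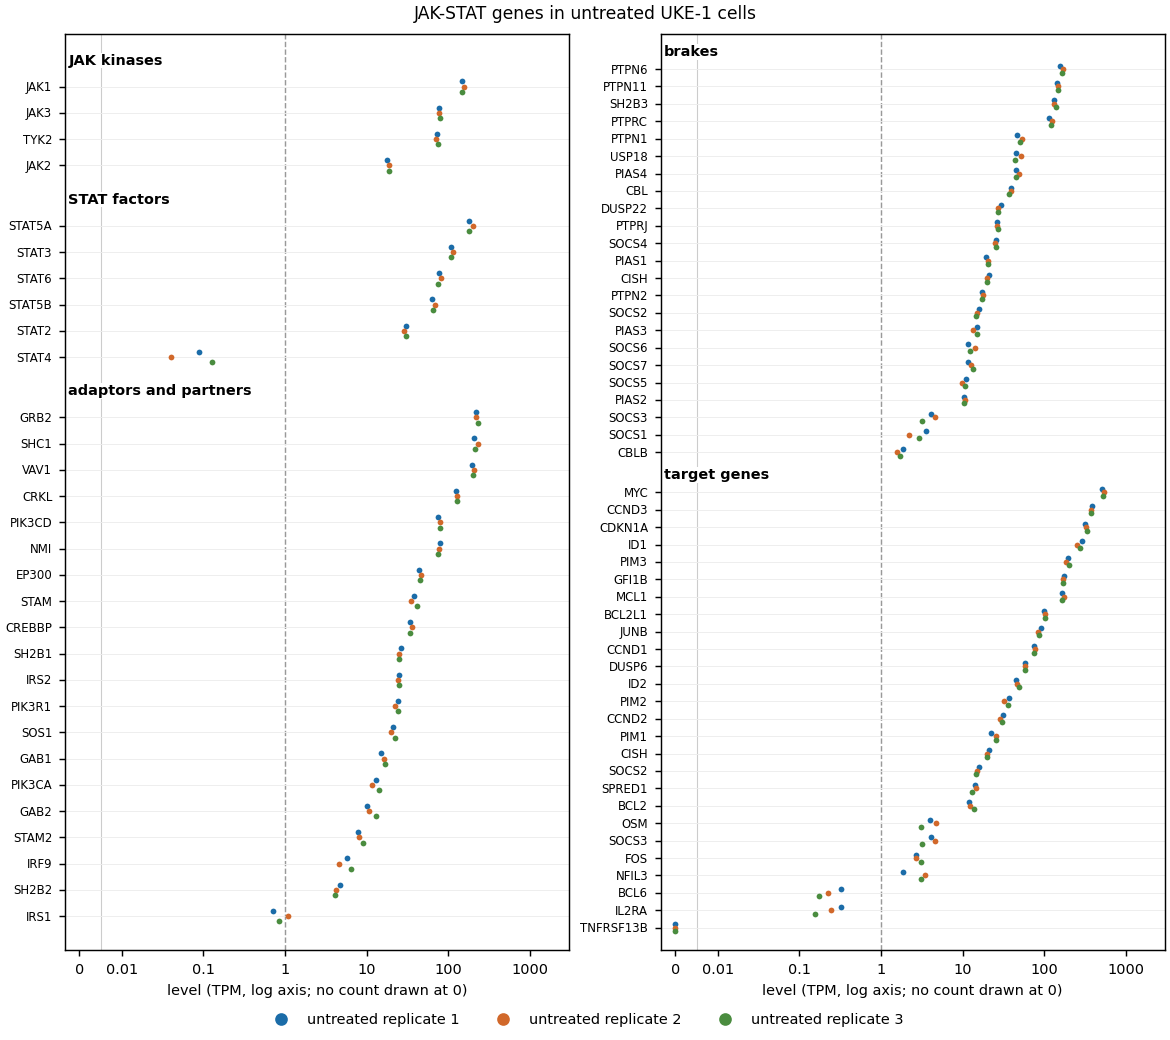
Level of JAK, STAT, adaptor, brake and target genes in each untreated library (TPM, log axis; 1 coloured point per library), ordered by the mean within each block, with a dashed line at 1 TPM and libraries without a count drawn at 0. JAK2 (18.5 TPM) lies left of JAK1 (150.2 TPM), STAT4 is the only STAT gene shown left of the dashed line, and all 23 brakes lie right of it.

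The genes listed as inhibitors of the pathway were all expressed, 23 of 23 beside 55.3% of all protein-coding genes, but their levels spread widely. Whether each of them acts as an inhibitor in these cells was not tested. Of the phosphatases, PTPN6, known as SHP-1, had 165 ± 8.896 TPM and PTPN11, known as SHP-2, 147 ± 2.41 TPM, whereas PTPN1 had 50.1 ± 3.06 TPM, PTPRJ 26.8 ± 0.2797 TPM and PTPN2 17.4 ± 0.288 TPM. SH2B3, the adaptor LNK that restrains JAK2, had 134, 132 and 139 TPM in replicates 1, 2 and 3. Several members of the SOCS family are induced by STAT factors and restrain the pathway in return. SOCS4 was the highest member of the family on the deposited lengths at 25.3 ± 0.437 TPM, or 17.9 TPM with the longest transcript. CISH had 20.9, 19.7 and 19.9 TPM, or a mean of 32.4 TPM with the longest transcript, and SOCS2 15.3 ± 0.706 TPM. SOCS3, the inhibitor of gp130 signalling, had 4.06, 4.53 and 3.21 TPM, and SOCS1, which blocks JAKs directly, 3.56, 2.23 and 2.95 TPM. The levels of the phosphatases and of the SOCS family thus overlapped, with SOCS4 and CISH above PTPN2 on the deposited lengths. With the longest transcript PTPN2 was at 29.8 TPM, below CISH and above SOCS4. Of 20 adaptors and partners 19 were expressed, with GRB2, which links receptors to RAS, at 222 ± 7.18 TPM, SHC1, which recruits GRB2, at 216 ± 12.2 TPM and VAV1, an exchange factor of blood cells, at 203 ± 4.61 TPM. The order of these 3 depended on the length, since VAV1 (210.3 TPM) came before GRB2 (191 TPM) with the longest transcript and SHC1 (242 TPM) before GRB2 (210.5 TPM) over unshared exonic bases. IRF9, a DNA-binding partner of STAT2, was low at 5.58 ± 0.968 TPM, or 10.3 TPM over its unshared exonic bases.

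Known targets of STAT5 and STAT3 were expressed for 23 of 26 members, which is 88.5% beside 55.3% of all protein-coding genes. MYC, the growth regulator, had 519.6, 537 and 534 TPM in replicates 1, 2 and 3. CCND3, the cyclin D3 gene, had 380.4 ± 2.84 TPM, or 627.5 TPM with the longest transcript. CDKN1A, the inhibitor p21 of cyclin-dependent kinases, had 325 ± 7.91 TPM, and ID1, an inhibitor of helix-loop-helix factors, 274 ± 18.1 TPM. Of the PIM survival kinases, PIM3 had 193 ± 7.64 TPM, PIM2 35.3 ± 2.296 TPM and PIM1 24.7 ± 1.896 TPM. Of the survival genes of the BCL2 family, MCL1 had 169.8 ± 6.46 TPM, BCL2 12.6 ± 1.02 TPM and BCL2L1 102 ± 1.87 TPM, or 170 TPM over the unshared exonic bases of BCL2L1. BCL6, a repressor of B cell and STAT5 target genes, had 0.2399 ± 0.07699 TPM, and TNFRSF13B, a receptor of B cells, had no count (upper limit 0.057 TPM). Many other pathways control these genes, so their levels do not measure STAT activity.

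The STAT letters, TTCNNNGAA, which read alike on both strands, were in 7.66% of the 35116 promoters and in 2 of the 20 matched target genes. CISH is shown because its window held 4 matches, in capitals.
CISH, chr3:50611725-50612024, minus strand: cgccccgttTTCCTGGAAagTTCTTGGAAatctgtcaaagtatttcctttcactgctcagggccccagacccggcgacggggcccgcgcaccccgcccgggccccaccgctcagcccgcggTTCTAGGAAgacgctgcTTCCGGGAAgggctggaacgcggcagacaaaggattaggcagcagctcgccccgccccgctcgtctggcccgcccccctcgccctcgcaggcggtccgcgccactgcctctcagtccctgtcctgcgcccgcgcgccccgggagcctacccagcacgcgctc
The 4 matches stood in the window of a gene at 20.2 TPM, lower than MYC, CCND3 or PIM3.

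All 24 listed genes known as drivers or partners of myeloproliferative neoplasms were expressed, beside 55.3% of all protein-coding genes. CALR, the chaperone calreticulin, was the highest at 1268, 1348 and 1306 TPM in replicates 1, 2 and 3. IDH2, a mitochondrial isocitrate dehydrogenase, had 345 ± 12.6 TPM, the splicing factor gene SRSF2 338 ± 8.62 TPM, or 507 TPM over its unshared exonic bases, and SF3B1, another splicing factor, 162 ± 3.17 TPM. ASXL1, a chromatin regulator, had 43.2 ± 1.49 TPM, TET2, a DNA demethylase, 12.2 ± 0.707 TPM and DNMT3A, a DNA methyltransferase, 9.697 ± 0.113 TPM. U2AF1, a splicing factor with a near-identical copy in the annotation, had 6.28, 2.505 and 8.88 TPM, or a mean of 26.6 TPM with its longest transcript, and its libraries spread more widely than those of the other members. Counts per gene carry no information on mutations in these genes.

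Of 29 TNF receptor family genes, 18 were expressed and 5 had no count. The expressed share, 62.1%, lay near the 55.3% of all protein-coding genes. TNFRSF1A, the death-domain receptor of TNF-α, had 118, 119 and 121 TPM in replicates 1, 2 and 3, and TNFRSF1B, its other receptor, 71.3, 73.6 and 72.5 TPM. The mean log2 ratio of TNFRSF1A over TNFRSF1B was 0.72 ± 0.02, a 1.65-fold difference, and 1.53 with the longest transcript as length. LTBR, the lymphotoxin β receptor, had 94.7 ± 2.45 TPM, or 179 TPM with the longest transcript, and TNFRSF14, the herpesvirus entry mediator, 71.5 ± 0.682 TPM, or 177 TPM. On that scale both came before TNFRSF1A at 146 TPM. The receptors for TRAIL were also present, TNFRSF10B at 52.9 ± 0.793 TPM and TNFRSF10A at 50.9 ± 0.269 TPM. FAS, the receptor of FAS ligand, had 6.48 ± 0.548 TPM, and CD40 34.04 ± 2.54 TPM. TNFRSF11A, the receptor RANK, had 0.201 ± 0.0488 TPM. RNA of both receptors of TNF-α was thus present in all 3 untreated libraries.

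The cells also made RNA for ligands of the family. LTB, lymphotoxin β, was the highest of 18 at 67.3 ± 1.22 TPM. TNF itself had 40.6, 36.1 and 40.4 TPM in replicates 1, 2 and 3. TNFSF8, the CD30 ligand, was at nearly the same mean, 38.01 ± 0.1501 TPM, and its receptor gene TNFRSF8 had 14.5 ± 0.369 TPM. LTA, lymphotoxin α, had 6.79 ± 1.53 TPM. ADAM17, the enzyme that sheds TNF from the membrane, had 9.09 ± 0.801 TPM, or 15.1 TPM with its longest transcript, and RHBDF2, which carries ADAM17 to the cell surface, 18.9 ± 0.388 TPM. FASLG and TNFSF11, the ligands of FAS and RANK, had no count (upper limits 0.107 and 0.074 TPM). In all 9 of the 18 ligands were expressed, which is 50%, near the 55.3% of all protein-coding genes.

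**Figure D5:**
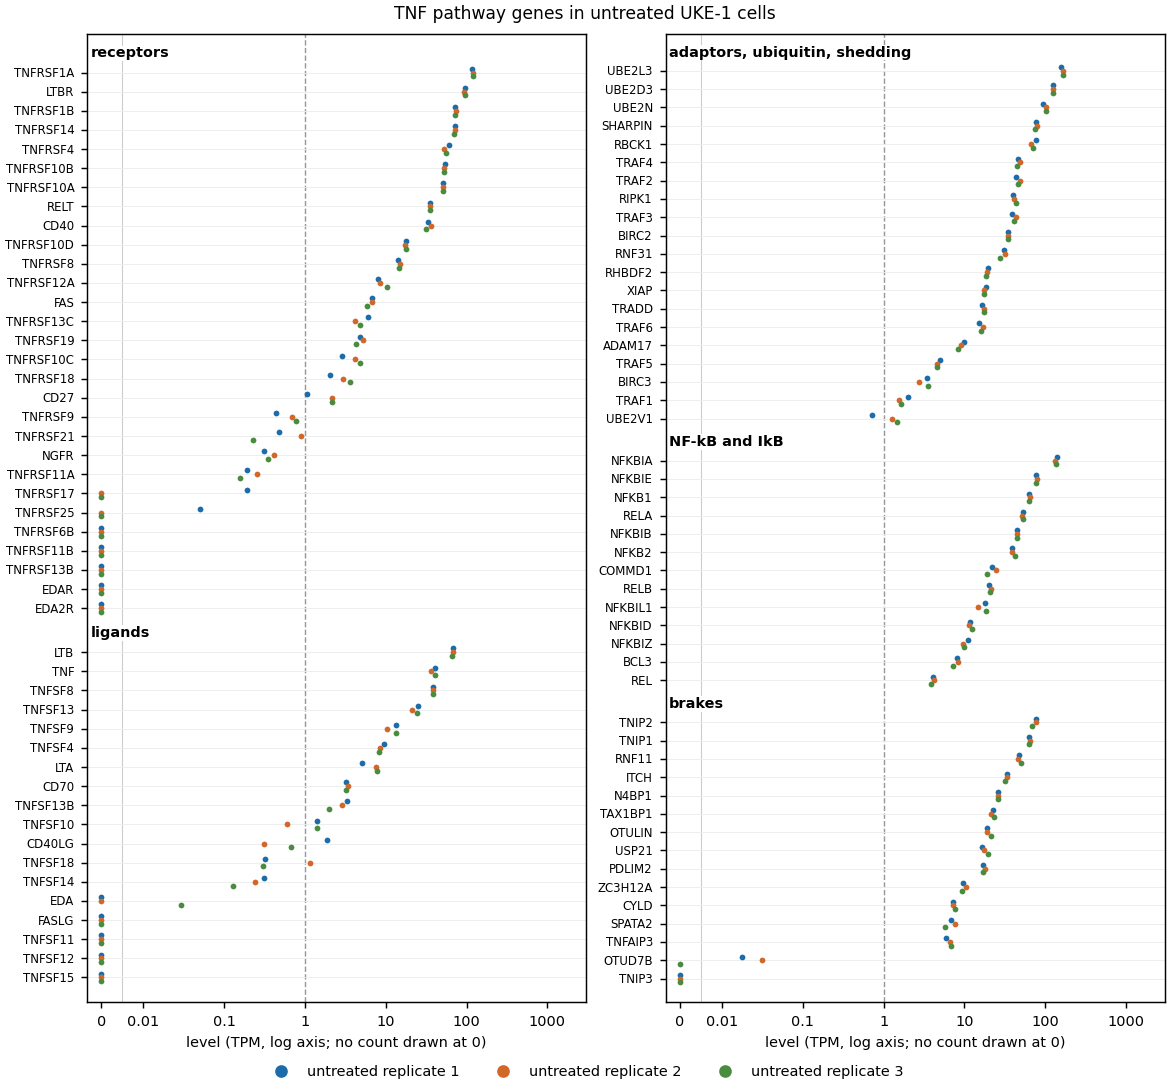
Level of TNF receptor family genes, ligands, adaptor, ubiquitin and shedding genes, NF-kB and IkB genes and brakes in each untreated library (TPM, log axis; 1 coloured point per library), ordered by the mean within each block, with a dashed line at 1 TPM and libraries without a count drawn at 0. TNFRSF1A (119 TPM), LTB (67.3 TPM), UBE2L3 (164 TPM), NFKBIA (135.5 TPM) and TNIP2 (74.4 TPM) head the blocks, and TNFAIP3 (6.45 TPM) is among the low brakes.

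A list of TNF receptor adaptors, ubiquitin enzymes and the shedding genes ADAM17 and RHBDF2 had 19 of 20 genes expressed (all protein-coding genes: 55.3%). TRADD, the first adaptor, had 17.2 ± 0.416 TPM, RIPK1, the kinase that carries ubiquitin chains, 41.6 ± 2.03 TPM and TRAF2, which recruits the ubiquitin ligases, 45.8 ± 2.89 TPM. Of those ligases BIRC2 had 34.6 ± 0.288 TPM, whereas BIRC3, its NF-kB-induced relative, had 3.405, 2.76 and 3.58 TPM in replicates 1, 2 and 3. The linear ubiquitin ligase was present with SHARPIN at 77.02 ± 1.83 TPM, RBCK1 at 71.2 ± 4.78 TPM and its catalytic chain RNF31 at 30.1 ± 2.35 TPM, or 47.1 TPM over the unshared exonic bases of RNF31. UBE2V1, a partner of the ubiquitin enzyme UBE2N, did not reach the threshold in replicate 1, with 0.709, 1.27 and 1.48 TPM. Over its unshared exonic bases the mean of UBE2V1 was 1.92 TPM, so this call may depend on the length.

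Kinases further down were expressed for 20 of 21 members, which is 95.2% beside 55.3% of all protein-coding genes. MAP3K7, the kinase TAK1, had 38.9 ± 1.93 TPM and is the activator of the IKK complex. The chains of IKK stood at 29.5 ± 0.677 TPM for CHUK, 28.8 ± 0.968 TPM for IKBKB and 10.8 ± 1.197 TPM for IKBKG, and IKBKB was at 54.2 TPM when scaled by its longest transcript. MAP3K14, the kinase NIK of the alternative route, was low at 2.98 ± 0.0735 TPM. MAPKAPK2, which stabilises cytokine RNA below p38, was the highest at 185 ± 4.68 TPM. MAP2K6, an activator of p38, had 0.884, 1.19 and 0.832 TPM in replicates 1, 2 and 3 and did not pass the threshold. Its relative MAP2K3, which also activates p38, had 86.5 ± 2.49 TPM.

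The death branch was expressed for 11 of 12 genes, which is 91.7% beside 55.3% of all protein-coding genes. FADD, the adaptor that brings in caspases, had 38.4 ± 1.19 TPM, or 81.0 TPM over its unshared exonic bases. CASP8, the initiator caspase, had 25.6 ± 1.73 TPM, or 43.0 TPM with its longest transcript. CFLAR, the inhibitor c-FLIP that holds caspase 8 back, had 7.87 ± 0.342 TPM. For necroptosis, the kinase gene RIPK3 had 4.21 ± 0.301 TPM and MLKL, which ruptures the membrane, 20.7 ± 0.889 TPM, or 31.8 TPM with its longest transcript. DIABLO, which frees caspases from their inhibitors, has 2 gene IDs in the table. The longer one, used here, had 1.04, 0.873 and 1.32 TPM in replicates 1, 2 and 3, below the threshold in replicate 2. Its mean was 1.47 TPM over unshared exonic bases and 2.68 TPM with the longest transcript, so this call may depend on the length. The call may depend on the gene ID as well, and the level of the other ID is not given here. Of the exonic bases of the ID used, 69.6% are free of other genes.

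All 13 NF-kB and IkB genes were expressed, beside 55.3% of all protein-coding genes. NFKB1, the p105 precursor of p50, had 63.7, 64.96 and 63.2 TPM in replicates 1, 2 and 3, and RELA, the subunit p65, 53.3, 52.3 and 52.7 TPM. The mean log2 ratio of NFKB1 over RELA was 0.28 ± 0.03, a 1.21-fold difference, and 0.11 with the longest transcript as length. In the alternative route, NFKB2, the precursor of p52, had 39.96 ± 1.697 TPM and its partner RELB 20.8 ± 0.571 TPM. REL was the lowest at 4.03 ± 0.179 TPM, or 6.76 TPM over its unshared exonic bases. NFKBIA, the inhibitor IκBα, was the highest of the list at 139.5, 131 and 136 TPM, above NFKBIE, the inhibitor IκBε, at 77.2 ± 1.09 TPM. Of 12 neighbouring pairs only COMMD1 and RELB overlapped.

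Inhibitors of the TNF route were expressed for 13 of 15 members, which is 86.7% beside 55.3% of all protein-coding genes. Of the ubiquitin-binding partners of A20, TNIP2 had 74.4 ± 4.97 TPM and TNIP1 63.6 ± 1.42 TPM. A20 itself, the ubiquitin-editing enzyme made by TNFAIP3, had 5.91, 6.64 and 6.78 TPM in replicates 1, 2 and 3. CYLD, which removes ubiquitin chains, was close to it at 7.35 ± 0.324 TPM, and OTULIN, which removes linear chains, had 19.8 ± 1.26 TPM. TNIP3, a further partner of A20, had no count (upper limit 0.0537 TPM).

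NF-kB targets were expressed for 20 of 32 members, with a median of 8.07 TPM. That share, 62.5%, lay near the 55.3% of all protein-coding genes. CD69, an early activation antigen, had 256, 259 and 254 TPM in replicates 1, 2 and 3. TNFAIP2, a gene first found as TNF-induced, had 160.5 ± 2.36 TPM, and the chemokine gene CCL5 94.8 ± 8.17 TPM. ICAM1, the adhesion molecule of leukocyte arrest, had 18.1, 16.3 and 16.8 TPM. At the low end VCAM1 had 2 counts in all, CCL2 1 count, and IL6 no count (upper limit 0.0977 TPM). The list thus held both genes above 100 TPM and genes near 0.

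The NF-kB letters, GGG, any 3 bases and TTCC, on either strand, were in 6.52% of the 35116 promoters. They were in 8 of the 11 matched NF-kB and IkB genes and in 11 of the 25 matched targets, 7 of 16 expressed ones and 4 of 9 others. NFKBIA and TNFAIP3 are shown because both encode inhibitors of NF-kB and stood at different levels. Capitals mark the matches.
NFKBIA, chr14:35404700-35404999, minus strand: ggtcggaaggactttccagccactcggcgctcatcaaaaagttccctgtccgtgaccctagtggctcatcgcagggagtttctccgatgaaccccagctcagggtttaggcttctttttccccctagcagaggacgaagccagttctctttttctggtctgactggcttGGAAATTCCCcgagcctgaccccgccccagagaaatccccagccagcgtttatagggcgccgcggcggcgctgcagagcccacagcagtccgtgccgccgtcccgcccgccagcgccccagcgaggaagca
TNFAIP3, chr6:137867009-137867308, plus strand: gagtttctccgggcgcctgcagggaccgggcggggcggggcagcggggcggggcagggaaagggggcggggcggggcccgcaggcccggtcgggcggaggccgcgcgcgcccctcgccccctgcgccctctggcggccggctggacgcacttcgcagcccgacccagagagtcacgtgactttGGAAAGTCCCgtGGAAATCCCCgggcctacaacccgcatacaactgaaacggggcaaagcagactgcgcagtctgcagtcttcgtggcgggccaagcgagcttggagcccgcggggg
NFKBIA, with 1 match, had 136 TPM and TNFAIP3, with 2 matches, 6.45 TPM.

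Of 39 genes of secreted growth factors and cytokines, 8 were expressed, which is 20.5% beside 55.3% of all protein-coding genes. A further 15 had no count. TGFB1, transforming growth factor β1, was far above the rest at 828, 809 and 837 TPM in replicates 1, 2 and 3. ANGPT1, the ligand of TEK, had 122 ± 3.79 TPM, or 386.5 TPM with the longest transcript, and VEGFA 8.77 ± 0.604 TPM, or 24.4 TPM. IL1B had 27 ± 0.825 TPM and OSM, oncostatin M, 3.93 ± 0.847 TPM. Several ligands of blood cytokine receptors were near 0, with THPO, thrombopoietin, without a count (upper limit 0.0747 TPM), EPO with 4 counts, all in replicate 2, and CSF1, a ligand of CSF1R, at 0.261 ± 0.0306 TPM. IL3 and CSF2, the gene of GM-CSF, had no count (upper limits 0.193 and 0.257 TPM).

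All 28 proliferation genes were expressed, beside 55.3% of all protein-coding genes, with a median of 168 TPM. PCNA, the sliding clamp of DNA replication, had 972, 983 and 955 TPM in replicates 1, 2 and 3. The helicase gene MCM7 had 525 ± 20.8 TPM, TOP2A, a topoisomerase of dividing cells, 317 ± 3.84 TPM and MKI67, the Ki-67 antigen, 209.7 ± 1.86 TPM. The lowest was CCNE1, cyclin E1, at 20.1 ± 1.28 TPM. The cultures thus held RNA of every replication and mitosis gene of the list, and the spread between libraries was at most 6.72% for any of them.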

How the data were processed

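RNA sequencing libraries of the 3 untreated samples were analysed, and the table's control columns were read as these samples, since no other labelled group lacks both TNF-α and drugs. The deposited values are raw counts of reads per gene, with no normalization, beside the gene lengths the authors gave. Tools named in the submitters' processing notes are the aligner HISAT2 (2.0.5), the counter featureCounts (1.5.0-p3) and DESeq2 (1.16.1), and the genome builds named are mm10 and hg38. How strand and multiply mapped reads were handled is not given in the sources used here. All 58735 genes had the same entries in GENCODE 29 (hg38) for ID, symbol, start, end and length, the length being the union of a gene's exons. That union understates the TPM of genes with rare long isoforms. Reads in exons that genes share may have been dropped, and 16 of the 710 members have under 50% of their exonic bases free of other genes.

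TPM was computed in Python 3.11.15 with pandas 2.3.3 as counts over length, scaled per library, with no filter on low values. The threshold was 1 TPM in all 3 libraries. No groups were compared and no test was made between conditions, so there is no p-value. Ratios between genes are means of the log2 ratio in each library, with SD. Pairs of libraries were compared by a chi-square of counts over genes with at least 10 counts. TMM factors from edgeR 4.0.16 in R 4.3.3 were 1.00, 0.999 and 0.998. The scripts were tested on simulated counts. Named genes could be drawn from the 5 highest of each list, members named for their lack, and the JAK, STAT, transcription factor, NF-kB and IkB lists, and not all of these are named. To these came, likewise in part, the 20 protein-coding and 5 non-coding genes of the highest level and the 10 of the widest spread. Other members, the promoters shown and the gene pairs of the ratios were chosen after their values were seen. Some genes of the lists are not reported here and are left out of the lists, their counts and medians. The members and lists were chosen with earlier results of these data known. Settings varied were the threshold, the length, the scaling and each library left out. Lengths over unshared exonic bases and over the longest transcript were added after the data were seen.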

Additional observations from a re-analysis of the deposited data

How the results depend on the processing

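No paired analysis was possible because the results come from no test between groups. The number of expressed protein-coding genes lay between 9267 at 5 TPM and 11663 at 10 counts, and leaving out a library gave 11111 to 11124. List counts stayed within 1.5-fold for all 30 lists without any 1 library and with each of the 3 other lengths. At 0.5 TPM chemokine receptors went to 9 expressed genes. At 5 TPM granulocyte genes went to 4, mast cell, basophil and eosinophil genes to 6, B cell genes to 3, non-haematopoietic genes to 3, cytokine receptors to 10, chemokine receptors to 3, innate receptors to 6 and growth factors to 5. At 10 counts in every library non-haematopoietic genes went to 9. In at least 1 library, and with TPM over nuclear protein-coding genes, chemokine receptors went to 8. With RPKM, which is 0.292 times TPM here, B cell genes went to 3, non-haematopoietic genes to 3 and growth factors to 5.

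The log2 ratio of GATA2 over GATA1 was 3.07 with 200 bases taken off each length and 3.61 with the longest transcript. With the longest transcript the ratios were 3.12 for JAK1 over JAK2, 1.58 for STAT5A over STAT5B, 1.53 for TNFRSF1A over TNFRSF1B and 0.11 for NFKB1 over RELA. That of JAK3 over TYK2 reversed to -0.21. By medians JAK1 over JAK2 was 2.965. The longest transcript moved 31 of 419 expressed members by over 1.5-fold and unshared bases 19. In these 31 and 19 shifts the counts are the same and only the lengths differ. Depth limits calls near 1 TPM.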

Other observations

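Several abundant genes lay outside the lists and were picked after their levels were seen. CRISP3, a secreted glycoprotein of neutrophil granules and exocrine glands, had 1809, 1626 and 1809 TPM in replicates 1, 2 and 3. It was the 15th highest nuclear protein-coding gene when ribosomal protein genes were left out. HMGA1, a chromatin protein of dividing and transformed cells, had 1775, 1642 and 1782 TPM. HLA-DRA, a chain of an MHC class II molecule, had 779.7 ± 13.1 TPM, and its chaperone CD74 924 ± 17.7 TPM. CD52, a surface peptide of lymphocytes and monocytes, had 975 ± 17.6 TPM, and IFI6, an interferon-stimulated gene, 953 ± 30.4 TPM. FERMT3, the kindlin that activates platelet integrins, had 676 ± 24.6 TPM, and CAVIN1, a coat protein of caveolae, 830 ± 18.2 TPM. CLEC11A, a growth factor of stem cells and bone, had 574 ± 4.37 TPM.

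RHAG and CRISP3 are close neighbours on chromosome 6 (hg38), RHAG at chr6:49605158-49636884 and CRISP3 at chr6:49727384-49744437, both on the minus strand. CRISP2, between them, had 2.53, 6.41 and 4.43 TPM in replicates 1, 2 and 3, and PGK2, beyond CRISP3, 9.79, 9.66 and 11.3 TPM. Of the 9 protein-coding genes from CENPQ to DEFB133 5 were expressed, near the 55.3% of all protein-coding genes, and 2 had no count. Another window lay on chromosome 12, in the C-type lectin cluster, which holds CD69, CLEC9A and CLEC1B. From CLECL1 to CLEC7A (chr12:9715860-10130258) 12 of 12 protein-coding genes were expressed, beside the same 55.3%. CLEC2B was the highest at 437, 414 and 448 TPM in replicates 1, 2 and 3, followed by CD69 and by CLEC2A at 206 ± 12.1 TPM. In the neighbouring stretch from OLR1 to KLRC1 (chr12:10158301-10454685) 1 of 11 was expressed, GABARAPL1 at 1.597 ± 0.428 TPM, and 9 had no count, 5 of which have under 50% of their exonic bases free of other genes. Both windows were chosen after the levels were seen, and no test was made.

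Among long non-coding genes, FAM30A, a transcript known from leukaemic progenitors, had 236, 231 and 234 TPM in replicates 1, 2 and 3, and LINC02470, which lies in the lectin cluster, 175, 182 and 175 TPM. NORAD, a regulator of Pumilio proteins, had 241 ± 7.53 TPM. Some abundant RNAs varied more between the libraries. RN7SL2, an RNA of the signal recognition particle, had 2471, 3453 and 1646 TPM. PFN1, the actin-binding profilin, had 1991, 2480 and 2101 TPM, with replicate 2 above the others, and MT-CO3, a subunit of cytochrome c oxidase, 22896, 19544 and 21861 TPM, with replicate 2 below them. Replicate 2 also held the most counts in all.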
